A study of Mus musculus with 10 samples.

Results

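Fitm2 encodes FIT2, a membrane protein of the endoplasmic reticulum, and lies on mouse chromosome 2 among the 9 protein-coding neighbours described here. These 10 genes (Fitm2, Jph2, Oser1, Gdap1l1, R3hdml, Hnf4a, Ttpal, Serinc3, Pkig and Ada) were taken from the deposited table by gene symbol, and all 10 were found among its 47340 genes. They were compared between pancreatic islets of 5 floxed control mice (FL) and 5 βFIT2KO mice (KO). All mice were male, 12 weeks old and fed chow, with 1 library per mouse, and islets were kept in culture overnight before RNA was extracted. FL mice carried FIT2 fl/fl, the gene flanked by loxP sites, and were given as wild type in the genotype label. KO mice carried the same floxed gene and in addition Cre recombinase driven by the rat insulin promoter, so that deletion was aimed at β cells and not at the other cells of the islet. No library came from islets with Cre but without the deletion, so the effect of Cre and that of the deletion cannot be told apart here. The exons between the loxP sites are not given in the sources used here, and each value of Fitm2 covers the whole gene.

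FIT2 acts in the endoplasmic reticulum membrane, where it binds neutral lipid, hydrolyses acyl-CoA and is needed for lipid droplets to bud normally toward the cytosol. The neighbours do other work. Hnf4a encodes a nuclear receptor and transcription factor of liver, gut and β cells, whose mutation in humans causes a monogenic form of diabetes. Serinc3 is a membrane protein of the serine incorporator family, Ttpal a relative of the α-tocopherol transfer protein, and Gdap1l1 a relative of the mitochondrial protein GDAP1. Pkig is an inhibitor of protein kinase A, Ada is adenosine deaminase, Jph2 is the junctophilin of heart muscle, Oser1 is a protein described as responsive to oxidative stress, and R3hdml is a putative secreted protein of the CAP family.

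Positions are those of GENCODE release M21 on GRCm38, in which each of the 10 genes had the identifier and version of the deposited table. Fitm2 (ENSMUSG00000048486.6) lies on the minus strand at chr2:163466379-163472629. It has 1 transcript of 2 exons that together span 3967 nt, of which 786 nt (19.8%) are coding. Exon 1 holds 173 coding nt and exon 2, 3740 nt long, holds the other 613, so most of the measured length of the gene is the untranslated end of exon 2. On the side of lower coordinates lie Gdap1l1 (chr2:163438476-163455324, plus strand), Oser1 (chr2:163405822-163424697, minus strand) and Jph2 (chr2:163336242-163397993, minus strand). On the other side lie R3hdml (chr2:163492318-163502612), Hnf4a (chr2:163506808-163572910) and Ttpal (chr2:163602314-163619013), all on the plus strand. They are followed by Serinc3 (chr2:163623272-163645131, minus strand), Pkig (chr2:163658386-163726158, plus strand) and Ada (chr2:163726584-163750239, minus strand). Relative to the start of Fitm2, that of Jph2 lies at −74.6 kb, that of Gdap1l1 at −34.2 kb and that of Ada at 277.6 kb.

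The 250 bases before the annotated starts were read from RefSeq (GRCm38.p6), which gave 12 entries for 8 of the 10 genes. Those of Fitm2 and Serinc3 are shown because both genes differed between FL and KO islets, and both starts of Hnf4a because this gene is known to be driven from a distal start in β cells and from a proximal start in liver. All are 5′ to 3′ on the strand of the gene, and capitals mark the motifs searched.
Fitm2, chr2:163472630-163472879, minus strand: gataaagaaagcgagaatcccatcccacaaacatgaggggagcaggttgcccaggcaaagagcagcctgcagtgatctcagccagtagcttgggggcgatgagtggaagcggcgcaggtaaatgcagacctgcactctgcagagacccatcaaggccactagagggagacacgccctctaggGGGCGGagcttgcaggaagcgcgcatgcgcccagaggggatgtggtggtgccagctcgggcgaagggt
Serinc3, chr2:163645144-163645393, minus strand: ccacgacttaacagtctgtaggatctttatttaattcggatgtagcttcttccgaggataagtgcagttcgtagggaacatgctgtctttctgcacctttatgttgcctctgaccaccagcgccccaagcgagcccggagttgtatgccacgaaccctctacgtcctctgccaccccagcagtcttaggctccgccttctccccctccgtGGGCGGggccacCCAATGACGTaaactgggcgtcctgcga
Hnf4a distal, chr2:163506607-163506856, plus strand: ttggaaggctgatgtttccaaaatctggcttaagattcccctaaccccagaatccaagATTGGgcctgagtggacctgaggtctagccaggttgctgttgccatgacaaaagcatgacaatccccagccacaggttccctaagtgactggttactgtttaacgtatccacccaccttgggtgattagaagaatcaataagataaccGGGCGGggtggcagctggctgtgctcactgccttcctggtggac
Hnf4a proximal, chr2:163546905-163547154, plus strand: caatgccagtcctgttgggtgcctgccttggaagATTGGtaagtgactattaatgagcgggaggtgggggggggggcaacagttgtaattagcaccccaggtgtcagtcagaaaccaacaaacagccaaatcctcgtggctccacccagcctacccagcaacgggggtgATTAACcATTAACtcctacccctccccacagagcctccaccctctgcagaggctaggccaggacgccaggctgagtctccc

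Motifs were searched as letters on both strands. The GC box (GGGCGG) stood in 8 of the 12 entries and in 32.7% of the 32851 RefSeq entries of the same length, and the CCAAT box (CCAAT) in 8 of 12 and 33.9%. Both entries of Jph2 and 2 entries of Pkig largely overlap and hold the same boxes, and by gene each of these motifs stood in 6 of 8. In the Fitm2 sequence the GC box was the only motif found. In that of Serinc3 the CCAAT box shares a base with a CRE core (TGACGT), which stood in none of the other entries of these genes and in 6.47% of all. The E-box CACGTG stood only in the Oser1 entry and in 6.02% of all. The HNF1 motif GTTAAT, on the reverse strand, stood only in the proximal Hnf4a sequence, with 2 copies, and in 6.43% of all. The letters CAAAGTCCA, as an HNF4 motif, and TATAAA, as a TATA box, stood in none of the 12 and in 0.38% and 12.4% of all. The 12 entries had a median GC content of 59.2%, against 52.4% over all entries. These matches describe the letters of the sequences and no binding was measured.

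The deposited values are FPKM, in which the fragments of a gene are scaled by its exon length and by all mapped fragments of the library. In long genes with 1 transcript nearly all low FPKM (92.7% to 94.6% in a library) were whole steps of 1 fragment, which gave depths equivalent to 23.5 to 56.7 M fragments (M, 1e6) in FL and 35.6 to 48.4 M in KO libraries. The test was limma's, on log2(FPKM + 1), over the 13065 genes whose mean in either group reached 1 FPKM, and fold changes are on that scale, which understates those of low genes. At an adjusted p (Benjamini-Hochberg) of at most 0.05, 25.5% of these genes differed, 16.5% being lower and 9.05% higher in KO, and in 19.1% the FL and KO values did not overlap. Of the 3333 genes called, 35.5% were higher, and 46.7% to 48.2% were when libraries were rescaled to a common level. The β cell genes Ins1, Ins2 and Iapp and the α cell gene Gcg were listed at 0 in all 10 libraries, so a gene listed at 0 need not have been silent. Of the 6 other β cell markers 5 were lower in KO. Of 4 endothelial markers 3 were higher (summed level 105 to 122 FPKM in FL mice and 126 to 170 in KO mice), as were all 4 stromal markers (7.82 to 11.8 FPKM and 13.0 to 20.1 FPKM). Of the tested markers of other cells, 1 of 4 for macrophages was higher, 1 of 4 for α cells, 1 of 3 for δ cells and 1 of 1 for hepatocytes (Ttr, also an α cell marker) were lower, and for duct cells 1 of 3 was lower and 1 higher. The higher duct marker, Cftr, passed the filter only through KO, where it is high (0.037 FPKM in FL mice and 2.13 in KO mice). None was called of the 5 acinar markers, the PP cell marker and the muscle marker. The library of KO mouse 5 stood apart in its acinar markers, with a summed level of 18083 FPKM against 2369 to 7237 in the other KO mice and 3658 to 9694 in FL mice, and its duct marker Krt19 was at 66.6 FPKM against 16.5 to 42.8 in all the others. Without it, the same number of the 10 genes, 4, was called.

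Of the 10 genes, 8 were tested, and Jph2 and R3hdml were under the filter on low values. Of the 8, 4 were called (25.5% over all genes tested). Fitm2 was lower in KO (1 of 8, beside 16.5%), but it is the deleted gene, so this call follows from the design. Among its tested neighbours Gdap1l1, Ttpal and Serinc3 were higher (3 of the 8 genes, beside 9.05%), and none was called lower. For these 4 genes, and for none of the others tested, FL and KO mice were fully separate in FPKM, as they were in 19.1% of all tested genes. The median log2 fold change was 0.09 over the 8 genes and −0.06 over all genes tested. The plot of FPKM by mouse shows the size of each difference beside the spread between mice.

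**Figure D1:**
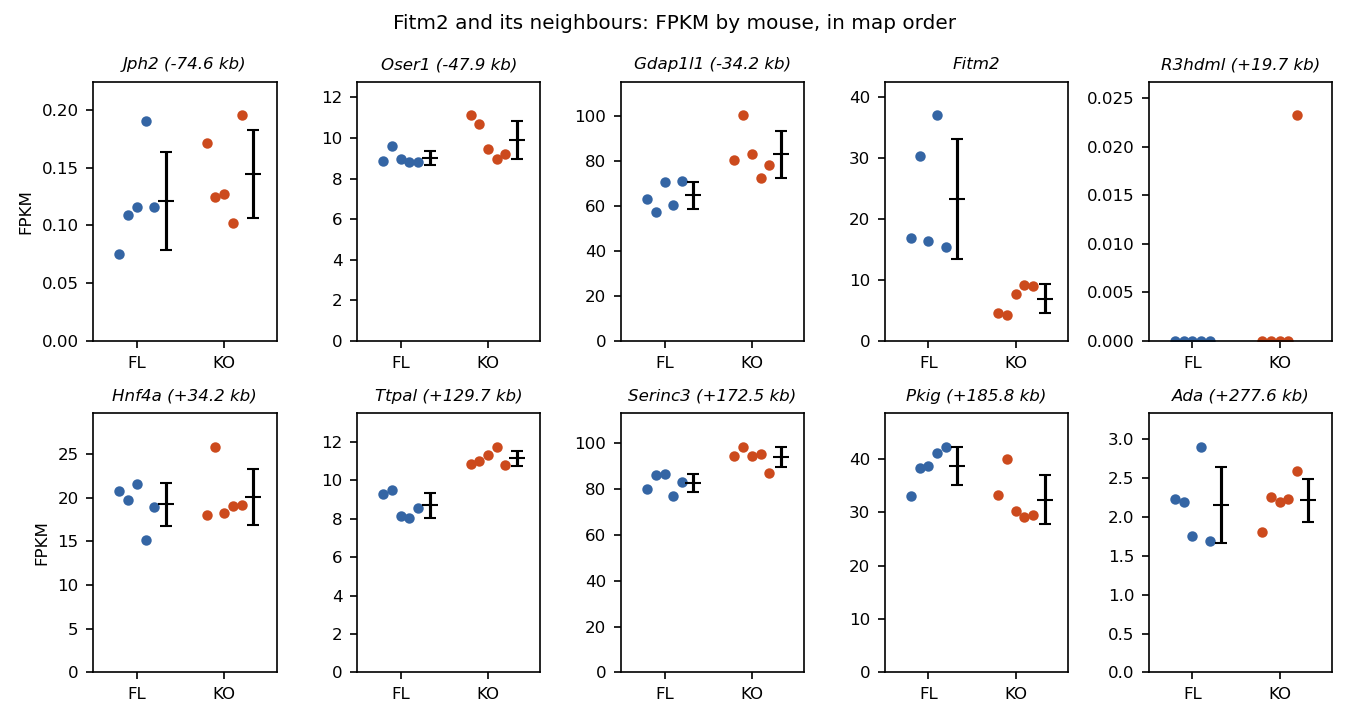
FPKM (vertical axes, linear and starting at 0, with a scale for each gene) of the 10 genes in 5 FL (blue) and 5 KO (orange) mice, in map order with the distance of each start from that of Fitm2; each point is 1 mouse and bars give the mean and SD, left out for R3hdml. In Fitm2 all KO mice lie below all FL mice, in Gdap1l1, Ttpal and Serinc3 all KO mice lie above, and in the others the groups overlap.

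Fitm2, the deleted gene, was lower in every KO mouse than in any FL mouse. It was at 16.9, 30.5, 16.5, 37.1 and 15.5 FPKM in FL mice 1 to 5, and at 4.56, 4.30, 7.75, 9.13 and 8.998 FPKM in KO mice 1 to 5. FL mice 2 and 4 were high, the other FL mice lay within 1.45 FPKM of one another, and KO mice 1 and 2 were the lowest of all. The mean was 23.3 ± 9.86 FPKM in FL mice and 6.95 ± 2.36 in KO mice (SD, n = 5), so that KO islets held 29.8% of the FL level. The log2 fold change of Fitm2 was −1.58 (95% interval −2.19 to −0.96), with an adjusted p of 0.00228 from limma and p = 0.00794 from an exact two-sided permutation test, the smallest p that 5 mice against 5 allow. In a bulk sample, fewer cells of a type and less RNA per cell cannot be told apart.

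The steps of the FPKM values gave the number of Fitm2 fragments behind each level. They were 1504, 4187, 2428, 4630 and 3312 fragments in FL mice 1 to 5 and 657, 720, 1040, 1337 and 1641 fragments in KO mice 1 to 5. FL mouse 1, the shallowest library, held fewer Fitm2 fragments than KO mouse 5, and their FPKM, already scaled for depth, were 16.9 and 8.998. Over mice, the coefficient of variation of Fitm2 was 42.3% in FL and 34.0% in KO. On the log2(FPKM + 1) scale its SD was 0.56 in FL, above that of 97.3% of the tested genes, and 0.46 in KO, above that of 96.4%, where the median gene had 0.11 and 0.13. Among the neighbours Ada varied most in FL, with an SD of 0.21, and Hnf4a in KO, with an SD of 0.20.

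The antisense gene 2310001K24Rik overlaps the first 673 nt of Fitm2 and also covers the sequence shown before its start. It was listed at 0 in all libraries but that of FL mouse 4, where it was at 0.113 FPKM. The library kit was stranded, but the sources used here do not say whether fragments were counted by strand. Fitm1, the only other gene of the FIT family, is known from skeletal muscle and heart and was at 0.021 ± 0.030 FPKM in FL mice and 0.031 ± 0.033 in KO mice (SD, n = 5), under the filter.

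**Figure D2:**
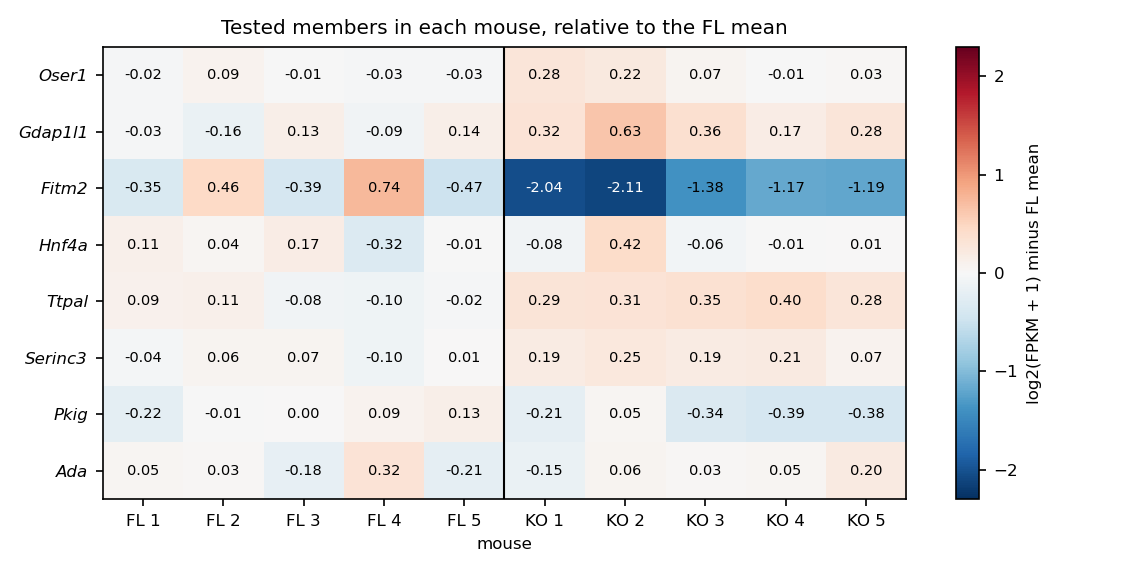
log2(FPKM + 1) minus the FL mean (colour and printed value) of the 8 tested genes (rows, in map order) in each mouse (columns, FL left of the line and KO right of it). Fitm2 lies between −2.11 and −1.17 in KO mice and reaches 0.74 in FL mouse 4, while no other gene is beyond 0.63 in either direction.

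Gdap1l1, the nearest neighbour of Fitm2 on the side of its 3′ end, was higher in KO. This relative of GDAP1, a protein of the outer mitochondrial membrane, is known mostly from nervous tissue. It was at 63.1, 57.5, 70.8, 60.6 and 71.3 FPKM in FL mice 1 to 5, and at 80.5, 100.3, 83.0, 72.6 and 78.2 FPKM in KO mice 1 to 5. KO mouse 2 was the highest, and KO mouse 4, the lowest of its group, lay just above FL mice 3 and 5. Its mean rose from 64.6 ± 6.15 to 82.9 ± 10.5 FPKM (SD, n = 5), by 0.35 on the log2 scale (95% interval 0.15 to 0.55, adjusted p = 0.0162 from limma, exact permutation p = 0.00794). Gdap1 itself was at 41.6 ± 4.07 FPKM in FL mice and 35.9 ± 3.69 in KO mice (adjusted p = 0.0937 from limma; SD, n = 5).

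Ttpal and Serinc3, which lie side by side beyond Hnf4a, were higher in KO too. Ttpal, which carries the lipid-binding fold of the CRAL-TRIO proteins, was at 9.30, 9.47, 8.12, 8.01 and 8.55 FPKM in FL mice 1 to 5 and at 10.9, 11.0, 11.3, 11.7 and 10.8 FPKM in KO mice 1 to 5. The KO mice lay within 0.963 FPKM of one another and all above the highest FL mouse. The mean of Ttpal went from 8.69 ± 0.667 to 11.1 ± 0.390 FPKM (SD, n = 5), and its log2 fold change was 0.33 (95% interval 0.21 to 0.45, adjusted p = 0.00161 from limma, exact permutation p = 0.00794). The spread of Ttpal was small in KO mice, where 4.11% of the genes tested had a lower SD, and near that of the median gene in FL mice, where 40.7% did. The related lipid transfer genes Ttpa, Rlbp1, Clvs1 and Clvs2 were all under the filter, at a mean of at most 0.598 FPKM in either group.

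Serinc3 had the highest mean level of the 10 genes in both groups, with a range in KO mice that overlapped that of Gdap1l1. It was at 80.1, 86.4, 86.5, 77.2 and 83.0 FPKM in FL mice 1 to 5 and at 94.4, 98.4, 94.6, 95.4 and 86.8 FPKM in KO mice 1 to 5. KO mouse 5 was the lowest of its group and lay 0.326 FPKM above FL mouse 3. The difference was small, from 82.6 ± 4.05 to 93.9 ± 4.29 FPKM (SD, n = 5), or 0.18 on the log2 scale (95% interval 0.07 to 0.29, adjusted p = 0.0204 from limma, exact permutation p = 0.00794). The promoter sequence of Serinc3 shown above is overlapped by the antisense gene 0610039K10Rik, which was at no more than 0.057 FPKM in any library. Between the groups, Gdap1l1, Ttpal and Serinc3 differed in the same direction as 3 of 4 endothelial and all 4 stromal markers given above. No relation to these markers was computed over single mice, and the part of those cells in the rises was not tested. Of the 6 tested β cell markers 5 differed in the other direction between the groups, and a relation to these was not tested either.

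The other tested neighbours did not pass the test. Pkig, which blocks the catalytic subunit of protein kinase A, was at 33.1, 38.3, 38.7, 41.1 and 42.3 FPKM in FL mice 1 to 5 and at 33.3, 39.9, 30.3, 29.1 and 29.4 FPKM in KO mice 1 to 5. FL mouse 1 lay among the KO mice and KO mouse 2 among the FL mice, while the other mice of the 2 groups did not overlap. The mean of Pkig was 38.7 ± 3.56 FPKM in FL mice and 32.4 ± 4.52 in KO mice (SD, n = 5), or −0.25 as a log2 fold change (95% interval −0.46 to −0.05, adjusted p = 0.0705 from limma, exact permutation p = 0.0556). Each of these libraries decided the call alone: without FL mouse 1 the adjusted p from limma was 0.0356, and without KO mouse 2 it was 0.0103.

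Hnf4a was at 20.7, 19.7, 21.6, 15.2 and 19.0 FPKM in FL mice 1 to 5 and at 18.1, 25.8, 18.3, 19.0 and 19.2 FPKM in KO mice 1 to 5. KO mouse 2 was high and FL mouse 4 low, and the groups overlapped. The means were 19.2 ± 2.49 and 20.1 ± 3.24 FPKM (SD, n = 5), and the difference had a 95% interval of −0.19 to 0.30 on the log2 scale (adjusted p = 0.752 from limma). Its sign turned without either of those libraries, to −0.034 without KO mouse 2 and to −0.023 without FL mouse 4. The table gives 1 value per gene, so the distal and the proximal start of Hnf4a were not separated.

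Oser1 was at 9.01 ± 0.349 FPKM in FL, from 8.80 to 9.63, and at 9.90 ± 0.948 FPKM in KO, from 8.97 to 11.1 (SD, n = 5). Its values overlapped, with a log2 fold change of 0.12 (95% interval −0.02 to 0.26, adjusted p = 0.193 from limma). The antisense gene 2900093K20Rik (chr2:163419795-163420361) lies within the annotated span of Oser1 on the other strand. It was at 10.1 to 13.2 FPKM in 9 libraries and at 21.1 FPKM in FL mouse 4. Whether the exons of these 2 genes overlap was not examined, and only there could their fragments be confused if strand was not used. The RefSeq entry before the start of Oser1 (chr2:163419471-163419720) lies at lower coordinates than 2900093K20Rik. Ada, which converts adenosine to inosine, was low in both groups, at 2.16 ± 0.484 FPKM in FL mice and 2.22 ± 0.275 in KO mice (SD, n = 5). Its interval of difference ran from −0.21 to 0.28 on the log2 scale (adjusted p = 0.840 from limma).

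Jph2 and R3hdml were under the filter in both groups. Jph2, which ties the plasma membrane to the sarcoplasmic reticulum in heart muscle, was at 0.075 to 0.190 FPKM in FL mice and at 0.102 to 0.195 in KO mice, and the groups overlapped (exact two-sided permutation p = 0.365). R3hdml was listed at 0 in 9 libraries and at 0.023 FPKM in KO mouse 5, which corresponds to 1.01 fragments.

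FPKM are scaled per exon length, so the levels of the genes can be ordered within a group. In FL islets the order of mean FPKM was Serinc3, Gdap1l1, Pkig, Fitm2, Hnf4a, Oser1, Ttpal, Ada, Jph2 and R3hdml. The ranges of Pkig and Fitm2, of Fitm2 and Hnf4a, and of Oser1 and Ttpal overlapped, and the other neighbours in this order did not overlap. In KO islets the order was Serinc3, Gdap1l1, Pkig, Hnf4a, Ttpal, Oser1, Fitm2, Ada, Jph2 and R3hdml, and Fitm2 stood at rank 7 in place of rank 4. There the ranges of Serinc3 and Gdap1l1, of Ttpal and Oser1, and of Oser1 and Fitm2 overlapped.

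Around these genes, the deposited table holds 66 genes that start or end within 1 Mb of Fitm2, of which 43 are protein coding. Of the 66, 46 were under the filter and 20 were tested. With the 8 tested genes of the locus left out, 12 remained, with 4 lower and 1 higher in KO (41.7%, beside 25.5% over all genes tested). The receptor tyrosine phosphatase gene Ptprt and the transcript 9430021M05Rik, which start next to each other at −811.5 kb from the start of Fitm2, were both lower. Ptprt went from 12.1 ± 1.04 to 6.52 ± 0.809 FPKM (SD, n = 5; log2 fold change −0.80, adjusted p = 5.49e-05 from limma), and 9430021M05Rik had a log2 fold change of −0.62 (adjusted p = 0.00186 from limma). Tomm34, which assists import into mitochondria, and Stk4, a kinase of the Hippo pathway, overlap at their starts on the other side and were lower by log2 fold changes of −0.20 and −0.29 (adjusted p = 0.0106 and 0.00553 from limma). The kinase gene Sgk2 was higher, with a log2 fold change of 0.31 (adjusted p = 0.0179 from limma). 9430021M05Rik passed the filter only through FL, where it is high (1.49 FPKM in FL mice and 0.620 in KO mice). In the plot of tested genes in map order, the 5 tested protein-coding genes nearest to Fitm2 by their starts have estimates above 0. Of these, Hnf4a and Oser1 have intervals that include 0. The cut at 5 genes was not set in advance. Serinc3, the farthest of the 5, starts at 172.5 kb, and Pkig, the next at 185.8 kb, has an estimate below 0. The antisense gene 2900093K20Rik, which starts at −52.8 kb, nearer than Ttpal and Serinc3, has an estimate of −0.19 and an interval that includes 0.

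**Figure D3:**
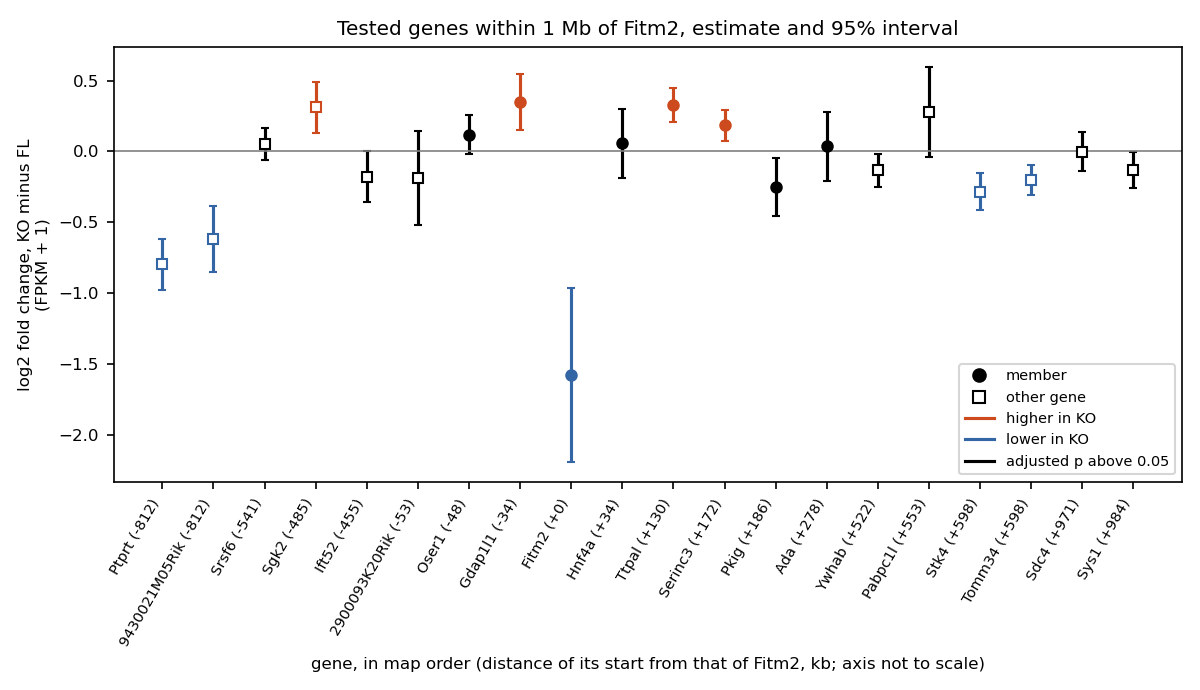
log2 fold change (KO minus FL, on FPKM + 1) with 95% interval of the 20 tested genes within 1 Mb of Fitm2, in map order with the distance of each start from that of Fitm2 in kb; filled circles are the 8 tested genes of the locus, open squares other genes, and colour gives the call. Fitm2, at −1.58, lies below the others, of which the lowest is Ptprt at −0.80 and the highest Gdap1l1 at 0.35.

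Relatives of the 10 genes elsewhere in the genome, 27 genes by a list of families, gave 14 tested genes, 5 of them lower and 3 of them higher in KO (57.1% called, beside 25.5% over all genes tested, 16.5% lower and 9.05% higher; median log2 fold change 0.06). Of the serine incorporators, Serinc5 went from 19.3 ± 0.968 to 40.4 ± 2.68 FPKM (SD, n = 5; log2 fold change 1.02, adjusted p = 4.61e-07 from limma). Serinc2 was lower, from 8.04 ± 1.34 to 4.78 ± 1.52 FPKM (SD, n = 5; log2 fold change −0.67, adjusted p = 0.0138 from limma), although KO mouse 5, at 7.28 FPKM, lay within the FL range. Serinc1, at 201 ± 19.8 and 209 ± 9.001 FPKM (SD, n = 5), was not called (adjusted p = 0.536 from limma).

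Of the junctophilins, Jph3 and Jph4, the forms known from neurons, were lower in KO. Jph3 went from 16.4 ± 2.14 to 9.14 ± 0.970 FPKM (SD, n = 5; log2 fold change −0.77, adjusted p = 0.000163 from limma), and Jph4 from 2.87 ± 0.369 to 2.04 ± 0.104 FPKM (SD, n = 5; log2 fold change −0.34, adjusted p = 0.00926 from limma). Jph1 was under the filter, like Jph2. Hnf4g, the other HNF4 receptor, was lower, from 2.41 ± 0.344 to 1.67 ± 0.187 FPKM (SD, n = 5; log2 fold change −0.35, adjusted p = 0.0160 from limma).

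Of the kinase inhibitors, Pkib was higher, from 30.3 ± 2.76 to 43.0 ± 5.15 FPKM (SD, n = 5; log2 fold change 0.49, adjusted p = 0.00285 from limma), and Pkia was not called (log2 fold change 0.06). Crispld2, a secreted CAP protein like R3hdml by family, was at 0.072 to 0.696 FPKM in FL mice and 1.65 to 3.51 in KO mice (log2 fold change 1.65, adjusted p = 7.14e-05 from limma). Crispld2 passed the filter only through KO, where it is high, so its place in the count follows in part from the filter. The 4 stromal markers were higher in KO as well, and their part in this was not tested. Adal, a deaminase relative of Ada, was lower by a log2 fold change of −0.28 (adjusted p = 0.0438 from limma), but left the called genes in 8 of the 10 fits that each leave out 1 mouse, with an adjusted p of up to 0.0973 and log2 fold changes of −0.35 to −0.22 over all 10. The adenosine genes Adk, Pnp and Slc29a1 were not called.

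Lipid droplet genes were given by a list of 26, which holds genes of lipid synthesis and droplet coats and also of lipolysis (Lipe, Pnpla2 and Abhd5) and its inhibition (G0s2 and Hilpda), with 18 tested, 2 lower and 3 higher in KO (27.8% called, close to the 25.5% over all genes tested; median log2 fold change 0.04). Dgat2, which makes triglyceride at the endoplasmic reticulum, was lower, from 7.33 ± 1.08 to 4.34 ± 0.614 FPKM (SD, n = 5; log2 fold change −0.64, adjusted p = 0.00161 from limma), and Dgat1 was not called (log2 fold change 0.13). Soat1, which makes cholesterol ester, went from 30.1 ± 3.22 to 64.5 ± 6.74 FPKM (SD, n = 5; log2 fold change 1.08, adjusted p = 1.01e-05 from limma). Plin2, which coats droplets, went from 41.9 ± 1.64 to 56.6 ± 5.05 FPKM (SD, n = 5; log2 fold change 0.42, adjusted p = 0.000654 from limma). Seipin, encoded by Bscl2, was at 45.0 ± 1.91 and 42.8 ± 3.55 FPKM (SD, n = 5) and was not called (adjusted p = 0.398 from limma).

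The acyltransferase genes Agpat2 and Gpat3 had log2 fold changes of −0.27 and 0.44 (adjusted p = 0.0221 and 0.0433 from limma), and both calls lay near the threshold. Gpat3 passed the filter only through KO, where it is high (0.543 FPKM in FL mice and 1.14 in KO mice), so its place in the count follows in part from the filter. Agpat2 was not called without FL mouse 3 or 4 or without KO mouse 1 or 4 (adjusted p 0.0502 to 0.0566), with log2 fold changes of −0.33 to −0.24 over all 10 fits that leave out 1 mouse. Gpat3, listed as Agpat9 in the table, was not called in 7 fits that each leave out 1 mouse (adjusted p up to 0.103), and without KO mouse 5 it fell under the filter. Over all 10 such fits the log2 fold change of Gpat3 was 0.35 to 0.52.

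**Figure D4:**
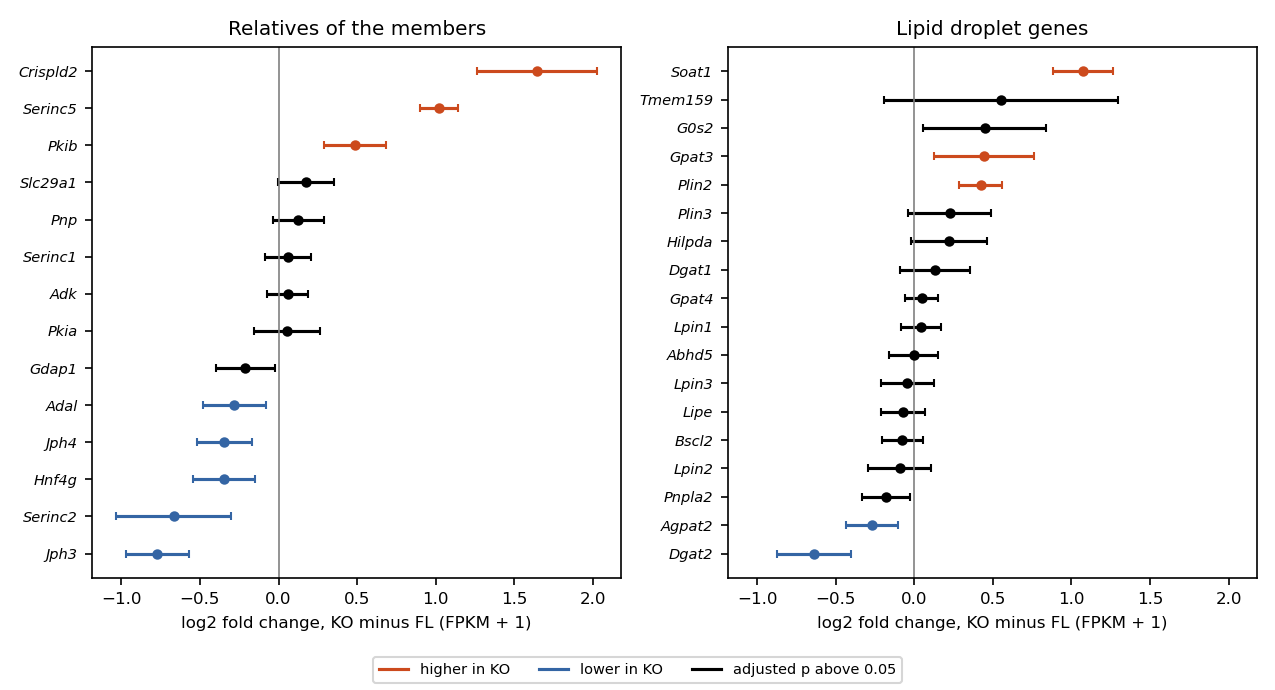
log2 fold change (horizontal axis, KO minus FL, on FPKM + 1) with 95% interval for the 14 tested relatives of the 10 genes (left) and the 18 tested lipid droplet genes (right); colour gives the call. Crispld2 at 1.65, which passed the filter only through KO, Soat1 at 1.08 and Serinc5 at 1.02 are the highest estimates, and Jph3 at −0.77 the lowest.

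The genes whose pattern over the 10 libraries was nearest to that of Fitm2, by the root mean square difference of log2(FPKM + 1) after subtraction of each gene's FL mean, were Gm4791 (0.37), 5930412G12Rik (0.39), Pdyn (0.41), Kcnj12 (0.45) and Trpc4 (0.45). The measure was taken over 13064 other genes and holds the KO difference itself. Trpc4 passed the filter only through FL, where it is high (2.68 FPKM in FL mice and 0.449 in KO mice). Gm4791, on chromosome 9, went from 19.6 ± 4.20 to 6.05 ± 1.14 FPKM (SD, n = 5), and Pdyn, which encodes prodynorphin and lies on chromosome 2 outside the 1 Mb window, from 12.1 ± 2.14 to 3.67 ± 0.727 FPKM (SD, n = 5). The FL values of 5930412G12Rik were 4.98, 6.31, 3.78, 10.1 and 2.63 FPKM in FL mice 1 to 5. They were highest in mice 4 and 2, as those of Fitm2 were, but FL values also entered the measure that chose this gene. Of the neighbours of Fitm2 on the chromosome, Pkig came nearest, at rank 2326, with a difference of 1.07, and Gdap1l1 was the farthest, at rank 12083, with 1.48.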

How the data were processed

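RNA of islets from 5 FL and 5 KO mice was sequenced as stranded, polyadenylated, single-end libraries of 75 nt. Per the submitters' processing notes, STAR 2.5.2a and Cuffnorm 2.2.1 were used with mm10/GRCm38. The values that the authors deposited are FPKM in a single table, whose 10 value columns were all mapped to mice. Whether fragments were counted by strand is not given in the sources used here.

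The 10 genes and the lists of relatives, lipid droplet genes and cell type markers were chosen with earlier results of these data known. Genes named besides the 10 are those called within 1 Mb of Fitm2 or in a list, and the 5 nearest to Fitm2 in pattern. Others named were chosen after their values were seen. Identifiers were matched to GENCODE M21, 38723 with their version and 46841 without it, out of 47340, and Gpat3 was found as Agpat9 by its identifier.

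KO was compared with FL by limma (version 3.58.1, R version 4.3.3; lmFit and a trended eBayes) on log2(FPKM + 1), without covariates. A gene entered where its mean in either group reached 1 FPKM, and p-values were adjusted by Benjamini-Hochberg over all 13065 such genes, with a threshold of 0.05. Single genes were also given an exact two-sided permutation test over the 252 assignments of mice. Fragments were recovered from the FPKM of 1-transcript genes with an effective length of the exon length minus 199 nt. In 5666 such genes over 1500 nt, 92.7% to 94.6% of the values of up to 20 fragments were whole within 0.05. Depths are therefore estimates. FPKM carry the counting error of their fragments, for which no interval was computed. In simulated data with 12823 genes tested, 66 of 67 genes changed by 1.5 on the log2 scale were called, 63 of 67 changed by 0.75 and 40 of 66 changed by 0.35, with 12 of 12623 unchanged genes called. Sequences were read from RefSeq for GRCm38.p6. Promoter entries of Gdap1l1 and Ttpal were not used here. Summaries and plots were made in Python (version 3.11.15) with matplotlib 3.10.9, numpy 2.4.6 and pandas 2.3.3.

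Alternatives were pseudocounts of 0.1 and 0.01, no filter or a filter at 5 FPKM, 4 ways of rescaling libraries, sample weights, robust eBayes or no trend in limma, the replicate number as a block, an exact Wilcoxon rank test, a threshold of 0.01, a change of at least 1.5-fold, and leaving out each mouse in turn.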

Additional observations from a re-analysis of the deposited data

Results flagged for a closer look

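A single mouse stood apart from the other 4 of its group by Dixon's criterion in 12 of the 117 groups of 5 mice examined, which are those of the 10 genes, of the tested genes within 1 Mb of Fitm2 and in the lists, and of the 5 genes nearest to Fitm2 in pattern. Chance flags about 1 group in 20, or 5.85 here. Hnf4a was at 25.8 FPKM in KO mouse 2, against 18.1 to 19.2 FPKM in the other KO mice, and without this mouse its small difference turned from higher to lower in KO. Oser1 was at 9.63 FPKM in FL mouse 2, against 8.80 to 8.96 FPKM in the other FL mice. R3hdml was at 0.0232 FPKM in KO mouse 5 and listed at 0 in the others, a difference of 1.01 fragments.

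FL mouse 4 was the mouse apart in 5 of the 12. It held Crispld2 at 0.696 FPKM (0.072 to 0.106 FPKM in the other FL mice), Pnp at 25.9 FPKM (21.5 to 22.5), Gpat4 at 31.7 FPKM (28.9 to 29.7), Ift52 at 62.8 FPKM (53.9 to 55.0) and 2900093K20Rik at 21.1 FPKM (10.5 to 12.8). In KO mice, Slc29a1 was at 93.8 FPKM in mouse 2 (70.4 to 75.8 in the others), Gdap1 at 29.4 FPKM in mouse 5 (36.6 to 38.6), Dgat1 at 9.22 FPKM in mouse 4 (12.25 to 13.1) and Hilpda at 15.0 FPKM in mouse 3 (10.4 to 11.2).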

How the results depend on the processing

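Fitm2 stayed lower in KO and past the threshold under all 25 alternatives, with log2 fold changes from −1.72 to −1.39 and adjusted p from 0.00164 to 0.0415. Of the neighbours, none of the 3 calls was lost when any 1 mouse was left out, and the count of genes called among the 10 was then 4 to 5. Serinc3 came nearest to the threshold, with an adjusted p of up to 0.0496. The cause of the changes below was not tested. The replicate numbers in the titles did not pair the mice: deviations of same-numbered FL and KO mice correlated at −0.10 to 0.003, and 0 of 5 correlated best with their own number. With the replicate number as a block, Gdap1l1 (0.35, adjusted p = 0.0502) and Serinc3 (0.18, adjusted p = 0.0579) were no longer called, which left 2 of the 10 genes, 5 relatives (without Hnf4g and Serinc2, both with adjusted p = 0.0539, and Adal, 0.0902) and 3 lipid droplet genes (without Agpat2, 0.0619, and Gpat3, 0.0719), and 2368 genes in all in place of 3333. The block is balanced, so the log2 fold changes of these genes stayed as they were. With the threshold at 0.01, 1666 genes, 2 of the 10, 5 within 1 Mb, 3 of these outside the 10, 5 relatives and 3 lipid droplet genes were called, and Gdap1l1 (0.35) and Serinc3 (0.18) were not. Where a 1.5-fold difference was also required, the counts were 639, 1, 3, 2, 4 and 2, and Gdap1l1 (0.35), Ttpal (0.33) and Serinc3 (0.18) were not among them. With a mean of at least 5 FPKM required, 5 relatives were called of 11 tested. Leaving out 1 mouse gave 3 to 5 lipid droplet genes, with 3 without FL mouse 3, FL mouse 4 or KO mouse 4. Pkig passed with sample weights (−0.28, adjusted p = 0.0190), and without FL mouse 1 or KO mouse 2 at −0.31 and −0.33 (range over mice left out −0.33 to −0.22). Hnf4a turned to −0.043 with sample weights, and ranged from −0.034 to 0.098 over mice left out, being below 0 without FL mouse 4 (−0.023) or KO mouse 2 (−0.034). Ada turned to −0.00029 under quantile normalization, and ranged from −0.017 to 0.12 over mice left out, being below 0 without FL mouse 3 (−0.0098), FL mouse 5 (−0.017) or KO mouse 5 (−0.0043). Rescaling moved the median of all genes from −0.06 to between −0.02 and −0.01 and left the calls of the 10 genes at 1 lower and 3 higher.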

Other observations

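Tmem159, which encodes the seipin partner LDAF1 and was chosen after its values were seen, was at 103.5, 30.0, 72.1, 23.6 and 41.4 FPKM in FL mice 1 to 5 and at 71.0, 75.3, 72.2, 69.5 and 58.1 FPKM in KO mice 1 to 5. The lowest of the FL values were those of mice 4 and 2, the mice with the highest Fitm2. The SD was 33.3 FPKM over FL mice and 6.60 over KO mice, and its mean was not called different (adjusted p = 0.261 from limma), although it was without FL mouse 1 (adjusted p = 0.0443 from limma). With 5 mice a relation between these 2 genes was not tested.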
